A study of Mus musculus with 12 samples.

Results

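GDNF, its signalling receptor Ret and the co-receptors encoded by Gfra1, Gfra2 and Gfra3 were followed in the embryonic geniculate ganglion, the cranial ganglion that holds the cell bodies of taste neurons. The members were all probe sets of the array annotated to 1 of these 5 genes and to no other gene. This gave 12 of the 45037 probe sets tested, with 1 probe set for Gdnf, 2 for Ret, 3 for Gfra1, 5 for Gfra2 and 1 for Gfra3, and the 5 genes belong to the 18193 genes that had a probe set of their own. RNA came from whole ganglia of mouse embryos at embryonic day 14.5, was amplified and labelled with biotin, and was hybridized to arrays that give 1 intensity per probe set. The 4 groups were NT4 knockout and NT4 wild type on the 129 background, and BDNF knockout and BDNF wild type on the C57BL/6J background, each on 3 arrays described in the labels as biological replicates. BDNF and NT4 are neurotrophins, survival factors for these neurons that act through the receptor TrkB. The number of embryos behind an array and the deleted part of each gene are not given in the sources used here, so the p-values measure the spread between these samples. Each knockout had a wild type of its own strain, whereas strain, colony and line cannot be told apart between the lines.

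Ligands of the GDNF family do not bind Ret alone. A lipid-anchored co-receptor of the GFR alpha family binds the ligand and brings it to Ret, a receptor tyrosine kinase, which then signals through adaptor proteins to the MAPK and PI3K pathways. GDNF prefers the co-receptor made from Gfra1, neurturin that from Gfra2, artemin that from Gfra3 and persephin that from Gfra4. In peripheral ganglia this system is known for the survival, migration and axon growth of enteric, autonomic and some sensory neurons.

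In the gene table of assembly GRCm38.p6, Gdnf lies on chromosome 15 from 7810048 to 7837580, Ret on chromosome 6 from 118151748 to 118197744 and Gfra1 on chromosome 19 from 58235581 to 58455946. Gfra2 lies on chromosome 14 from 70890107 to 70979840. The array table gives no coordinates, so it is not known which exon or untranslated region a probe set reads. Promoter sequence from RefSeq (GRCm38.p6) was matched for 2 of the 5 genes, Gdnf and Gfra1, in 3 windows. The stretch before the Gdnf start is printed because Gdnf is the ligand of the set. It is also the only one of the 3 windows that held a motif searched for. It covers the 250 bases before the start site, chr15:7809798-7810047 on the plus strand, and capitals mark, in order, the match to the CRE half-site on the minus strand and the TATA match on the plus strand.
Gdnf promoter: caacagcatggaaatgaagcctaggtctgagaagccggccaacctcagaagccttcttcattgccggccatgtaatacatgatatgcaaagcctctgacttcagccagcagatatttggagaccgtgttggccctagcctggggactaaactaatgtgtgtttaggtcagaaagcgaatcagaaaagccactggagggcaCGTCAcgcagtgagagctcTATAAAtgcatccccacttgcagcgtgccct
The motifs searched on both strands were the CRE half-site TGACG, which cAMP- and activity-responsive factors of the CREB family can bind, the full CRE TGACGTCA and the TATA box TATAAA. The half-site match began 50 bases and the TATA match 31 bases before the start. Of 32851 promoter windows, 20.8% held the half-site, 1.79% the full CRE and 13.6% the TATA box, so the matches are a description only.

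Across the arrays the median intensity ran from 168 to 201, and between 5.87% and 7.91% of probe sets were under 20. Within a group, pairs of arrays correlated at 0.967 to 0.985 over all probe sets. On the arrays of NT4 wild-type replicate 2 and BDNF wild-type replicate 2, Xist, a transcript of the inactive X chromosome, was above the mean of 3 Y-linked genes by 7.92 and 8.09 on the log2 scale, so that these 2 arrays stand apart, while the other arrays ran from 2.79 to 5.09. BDNF wild-type replicate 2 was also the lowest of its group in 9 of the 12 probe sets followed here. Of the targeted genes, Bdnf read by 1422168_a_at was at 25.2, 26.9 and 23.3 in BDNF knockout ganglia, against 243, 169 and 288 in BDNF wild-type ganglia, whereas its other probe set, 1422169_a_at, was at 320, 348 and 278 in knockouts, against 269, 243 and 273 in wild types. Ntf5, the gene for NT4, was read at 37.2, 42.3 and 36.2 in NT4 knockout ganglia, against 33.8, 42.8 and 46.6 in NT4 wild-type ganglia, all under the limit for dim probe sets given below. The same probe set read 119, 141 and 153 in BDNF knockouts and 147, 110 and 118 in BDNF wild types, and the log2 difference between the lines was -1.61 in wild types (limma adjusted p = 5.84e-05) and -1.83 in knockouts. The NT4 knockout and NT4 wild-type readings overlapped at this low level, so that probe set is no check of the NT4 labels. Markers of the geniculate ganglion were present: of 8 listed, 7 were measured and none was dim, with P2rx3, an ATP receptor of taste neurons, and Ntrk2, the gene for TrkB, the brightest. A probe set was called dim where its median over the arrays was under 61.2, the 25th percentile of all probe sets. Of the 7 markers, Tlx3 was under this limit on 4 of the 6 BDNF-line arrays and on none of the NT4 line. In these bulk samples fewer cells of a type and less RNA per cell cannot be told apart.

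Of the 12 probe sets, none passed the threshold for the loss of NT4 or of BDNF. Of the same 12, 1, that of Gfra3, was called higher in the NT4 line in both genotypes. Of all probe sets, 6.48% were called higher in the NT4 line between wild types and 8.31% between knockouts. Gfra3 stood 3.0-fold higher in NT4 wild-type than in BDNF wild-type ganglia and 3.47-fold higher in NT4 knockout than in BDNF knockout ganglia. No probe set of Ret or Gfra2 passed the threshold in any contrast. The lowest p-values in a knockout contrast belonged to 1 of the 3 Gfra1 probe sets and to Gdnf, both lower in the BDNF knockout and neither past the threshold. The tests were limma's moderated tests on log2 intensities with 4 group means, and p-values were adjusted by Benjamini-Hochberg over all 45037 probe sets with a threshold of 0.05.

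For the loss of BDNF, 0 of 12 probe sets were called, where 0.0178% of all probe sets were. At an unadjusted p under 0.05 there were 2, both lower in the knockout (of all probe sets, 6.72% passed in either direction and 4.25% lower). The same 2 were the ones whose arrays did not overlap between knockout and wild type, against 10.6% of all probe sets in either direction and 6.55% lower. For the loss of NT4, 0 of 12 were called (0.00444% of all probe sets) and 0 had an unadjusted p under 0.05 (5.62% of all). The arrays of 1 probe set, that of Gdnf, did not overlap, with the knockout lower, against 12.1% of all in either direction and 4.29% lower. The median log2 difference over the 12 probe sets was -0.02 for the BDNF knockout and 0.08 for the NT4 knockout, and over all probe sets it was -0.02 and 0.05. None of the 12 was called for the difference of the 2 effects (0.0111% of all probe sets), and 1, of negative sign, had an unadjusted p under 0.05 (5.84% of all in either direction and 4.3% negative).

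**Figure D1:**
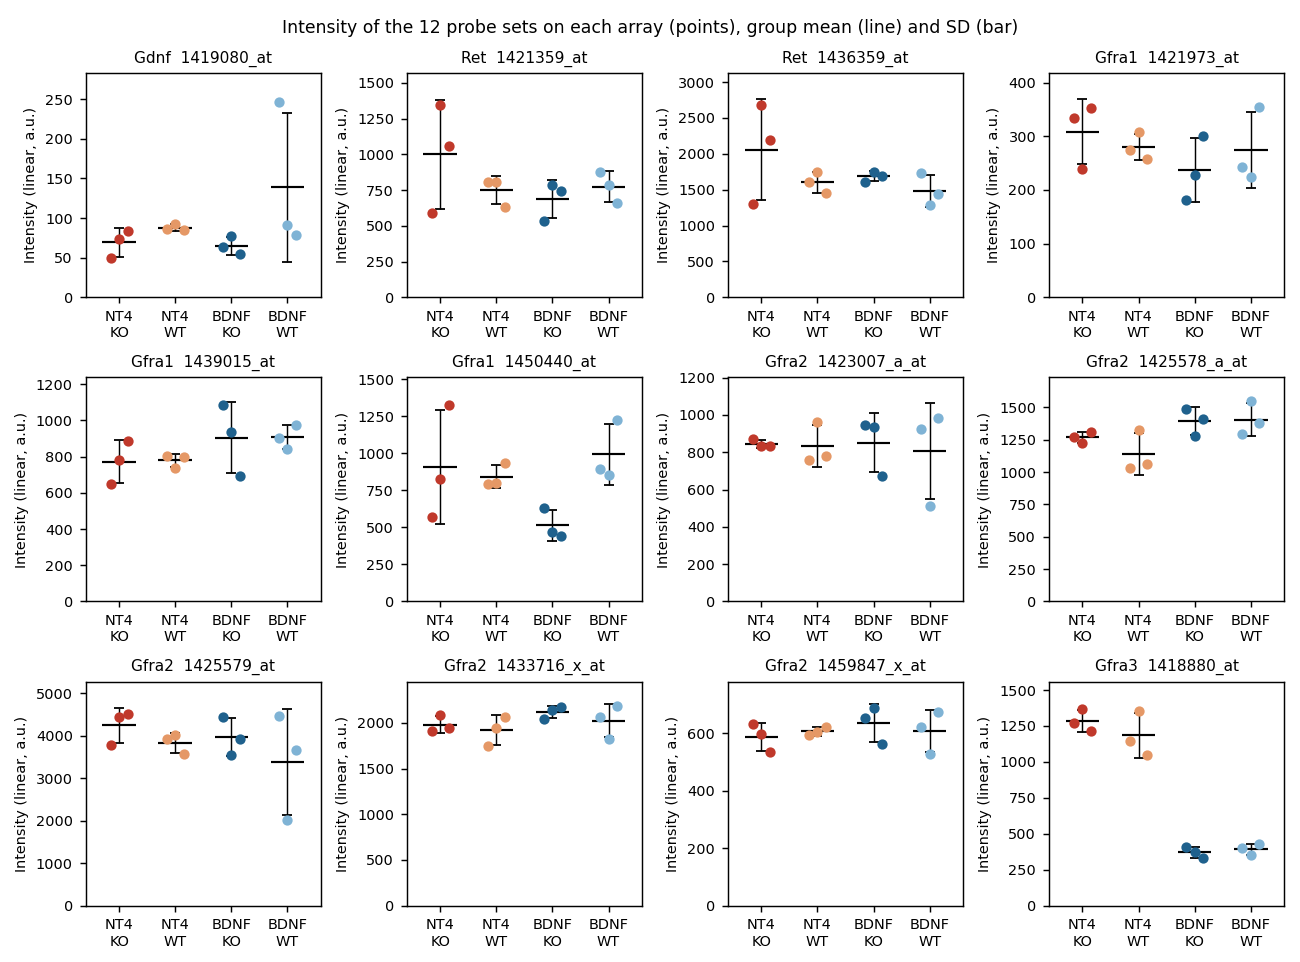
Linear intensity (arbitrary units, each axis from 0) of the 12 probe sets on every array, with points for arrays, a line for the group mean and a bar for the SD of 3 arrays. Gfra3 sits between 1049 and 1365 in the NT4 line and between 332 and 429 in the BDNF line, and the groups of the other genes overlap except where the text says otherwise.

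Gdnf encodes the ligand, and its probe set 1419080_at lay near the limit for dim probe sets. It read 49.6, 73.9 and 84.2 in NT4 knockout ganglia, against 86.1, 93.0 and 84.6 in NT4 wild-type ganglia. In the BDNF line it read 63.1, 77.0 and 54.3 in knockouts, against 247, 91.1 and 78.2 in wild types. Every knockout array thus lay below every wild-type array of its own line, though by little in both cases, and 1 wild-type array of the BDNF line stood far above the rest. The median over the arrays was 81.2, and 2 arrays were under the 25th percentile of all probe sets. The log2 difference was -0.91 (SE 0.38, 95% interval -1.75 to -0.08) for the BDNF knockout, with an unadjusted p of 0.0353 and a limma adjusted p of 0.706. Without BDNF wild-type replicate 1, the array at 247, it was -0.40. For the NT4 knockout it was -0.38 (SE 0.38, interval -1.21 to 0.46, adjusted p = 0.964 by limma). The 2 effects differed by -0.54 (SE 0.53, limma adjusted p = 0.952), so neither a loss nor an equal level of Gdnf was shown. Between the lines the log2 difference was -0.46 in wild types (SE 0.38) and 0.08 in knockouts (SE 0.38), with arrays that overlapped in both.

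Ret encodes the receptor tyrosine kinase shared by the co-receptors. Probe set 1421359_at read 590, 1349 and 1061 in NT4 knockout ganglia, against 804, 808 and 635 in NT4 wild-type ganglia, and 537, 786 and 742 in BDNF knockout ganglia, against 875, 788 and 658 in BDNF wild-type ganglia. Probe set 1436359_at read 1294, 2684 and 2200 in NT4 knockouts, against 1608, 1750 and 1456 in NT4 wild types, and 1614, 1753 and 1697 in BDNF knockouts, against 1730, 1289 and 1438 in BDNF wild types. Both probe sets placed NT4 knockout replicates 2 and 3 above the other 10 arrays and replicate 1 of that group next to the lowest of all. The SD of 1436359_at was 706 around a mean of 2059 in NT4 knockouts, against 147 around 1605 in NT4 wild types, and 69.7 around 1688 in BDNF knockouts, against 225 around 1486 in BDNF wild types.

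Neither Ret probe set passed the threshold in any contrast. For the NT4 knockout the log2 differences were 0.34 (SE 0.28) for 1421359_at and 0.30 (SE 0.23) for 1436359_at. For the BDNF knockout they were -0.18 (interval -0.80 to 0.44) and 0.19 (interval -0.32 to 0.71), of opposite sign between the 2 probe sets. In NT4 wild types minus BDNF wild types they were -0.05 and 0.12, and in NT4 knockouts minus BDNF knockouts 0.48 and 0.22. The knockout value of 1421359_at moved with NT4 knockout replicate 1: without that array it was 0.82 with a limma adjusted p of 0.0306, against 0.48 and 0.311 with it. Over the 6 arrays of a line, which share its groups, the 2 Ret probe sets correlated at 0.99 in the NT4 line and at 0.12 in the BDNF line. Probe set 1421359_at ran from 590 to 1349 in the NT4 line and from 537 to 875 in the BDNF line. For 1436359_at the ranges were 1294 to 2684 and 1289 to 1753.

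Gfra1 encodes the preferred co-receptor of GDNF, and its 3 probe sets did not behave alike. Probe set 1450440_at read 632, 466 and 442 in BDNF knockout ganglia, against 896, 856 and 1228 in BDNF wild-type ganglia, so the highest knockout array was below the lowest wild-type array. In the NT4 line it read 570, 827 and 1329 in knockouts, against 794, 803 and 932 in wild types, and the knockout arrays spread on both sides of the wild types. The log2 difference for the BDNF knockout was -0.95 (SE 0.28, interval -1.57 to -0.33), with an unadjusted p of 0.00647 and an adjusted p of 0.524 by limma. For the NT4 knockout it was 0.03 (SE 0.28). The difference between these effects was -0.98 (SE 0.40, unadjusted p = 0.0324 and adjusted p = 0.840 by limma).

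This Gfra1 probe set was the 1 member in the authors' deposited table of 667 probe sets for BDNF. There the knockout mean was 513.21, the wild-type mean 992.97, the signed fold -1.93 and the unadjusted p 0.036699. The authors' deposited table for NT4 held 0 members. The other Gfra1 probe sets did not show this difference. Probe set 1439015_at read 1084, 937 and 694 in BDNF knockouts, against 904, 844 and 976 in BDNF wild types, a log2 difference of -0.03 with an interval of -0.41 to 0.36. Probe set 1421973_at read 182, 227 and 300 in BDNF knockouts, against 243, 224 and 355 in BDNF wild types, a log2 difference of -0.21 with an interval of -0.73 to 0.31. Both overlapped between the groups.

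In the NT4 line 1439015_at read 649, 780 and 887 in knockouts, against 803, 735 and 798 in wild types, and 1421973_at read 334, 239 and 353 in knockouts, against 275, 307 and 258 in wild types. The log2 differences for the NT4 knockout were -0.02 and 0.12, with arrays that overlapped. Between the lines 1439015_at was -0.22 in wild types and -0.22 in knockouts, with SE 0.17, and in wild types its NT4 arrays lay all below its BDNF arrays. Probe set 1450440_at was -0.22 between wild types and 0.76 between knockouts (SE 0.28 in each). The second value had an unadjusted p of 0.0216 and a limma adjusted p of 0.103, and without NT4 knockout replicate 1 it was 1.05 with a limma adjusted p of 0.0199. Over 6 arrays per line, 1439015_at and 1450440_at correlated at 0.94 in the NT4 line and at 0.39 in the BDNF line.

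Gfra2 encodes the preferred co-receptor of neurturin and had 5 probe sets, none of which passed the threshold in any contrast. The brightest, 1425579_at, read 3780, 4455 and 4526 in NT4 knockouts, against 3928, 4017 and 3572 in NT4 wild types. It read 4436, 3557 and 3925 in BDNF knockouts, against 4478, 2017 and 3669 in BDNF wild types. The array at 2017 is BDNF wild-type replicate 2, 1 of the 2 arrays of high Xist, and the other 11 arrays lay between 3557 and 4526. The log2 difference for the BDNF knockout was 0.30 (SE 0.25) with this array and -0.03 without it, and for the NT4 knockout 0.15 (SE 0.25).

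A further Gfra2 probe set, 1423007_a_at, placed the same array lowest: 948, 935 and 670 in BDNF knockouts, against 923, 511 and 985 in BDNF wild types. In the NT4 line it read 869, 832 and 832 in knockouts, against 757, 960 and 782 in wild types. Probe set 1459847_x_at read 654.0, 686.7 and 561.1 in BDNF knockouts, against 621.5, 527.3 and 672.1 in BDNF wild types, again with replicate 2 lowest, and 629.7, 596.8 and 535.0 in NT4 knockouts, against 593.5, 602.0 and 621.8 in NT4 wild types. The groups overlapped in both probe sets and both lines, and their log2 differences for the knockouts lay between -0.05 and 0.12.

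The narrowest of the Gfra2 probe sets was 1433716_x_at, with a highest array 1.25 times its lowest. It read 2046, 2144 and 2169 in BDNF knockouts, against 2062, 1826 and 2184 in BDNF wild types, and 1915, 2086 and 1939 in NT4 knockouts, against 1752, 1944 and 2069 in NT4 wild types. The 95% intervals were -0.17 to 0.31 for the BDNF knockout and -0.20 to 0.29 for the NT4 knockout. As ratios of knockout over wild type these intervals run from 0.888 to 1.24 and from 0.873 to 1.22.

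The last Gfra2 probe set, 1425578_a_at, read 1489, 1275 and 1408 in BDNF knockouts, against 1294, 1545 and 1377 in BDNF wild types, and 1269, 1221 and 1312 in NT4 knockouts, against 1030, 1327 and 1065 in NT4 wild types. It gave the lowest p of the gene between the lines: the log2 difference in NT4 minus BDNF wild types was -0.31 (SE 0.13, unadjusted p = 0.0361 and adjusted p = 0.163 by limma) and in NT4 minus BDNF knockouts -0.13 (SE 0.13). The other 4 Gfra2 probe sets lay between -0.07 and 0.26 in wild types and between -0.11 and 0.10 in knockouts. Pairs of Gfra2 probe sets correlated at -0.66 to 0.95 over the 6 arrays of the BDNF line and at -0.79 to 0.85 over the 6 arrays of the NT4 line, so they did not order the arrays alike.

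Gfra3 encodes the preferred co-receptor of artemin, known in sympathetic and pain-sensing neurons. The gene lies on chromosome 18 from 34689898 to 34720387 (GRCm38.p6). Its probe set 1418880_at read 1268, 1365 and 1217 in NT4 knockouts and 1146, 1357 and 1049 in NT4 wild types, against 407, 373 and 332 in BDNF knockouts and 398, 352 and 429 in BDNF wild types. The lowest array of the NT4 line was above the highest array of the BDNF line, in knockouts and in wild types. In NT4 minus BDNF wild types the log2 difference was 1.59 (SE 0.13, interval 1.29 to 1.88, adjusted p = 1.55e-05 by limma). In NT4 minus BDNF knockouts it was 1.80 (SE 0.13, interval 1.5 to 2.09, adjusted p = 6.30e-06 by limma). The wild-type and knockout contrasts share no array. They differed by -0.21 in the test of the BDNF effect minus the NT4 effect (SE 0.19, limma adjusted p = 0.939).

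Gfra3 did not differ beyond the spread with either knockout. The log2 difference was -0.09 for the BDNF knockout (interval -0.38 to 0.21) and 0.12 for the NT4 knockout (interval -0.17 to 0.42). In order of mean the groups were NT4 knockout at 1283 ± 75.1, NT4 wild type at 1184 ± 157, BDNF wild type at 393 ± 39.0 and BDNF knockout at 370 ± 37.4 (SD, n = 3 each). The step between NT4 wild type and BDNF wild type was the 1 step of the order larger than the SD within groups. The gene has a single probe set here, so no second reading of the line difference was to hand.

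**Figure D2:**
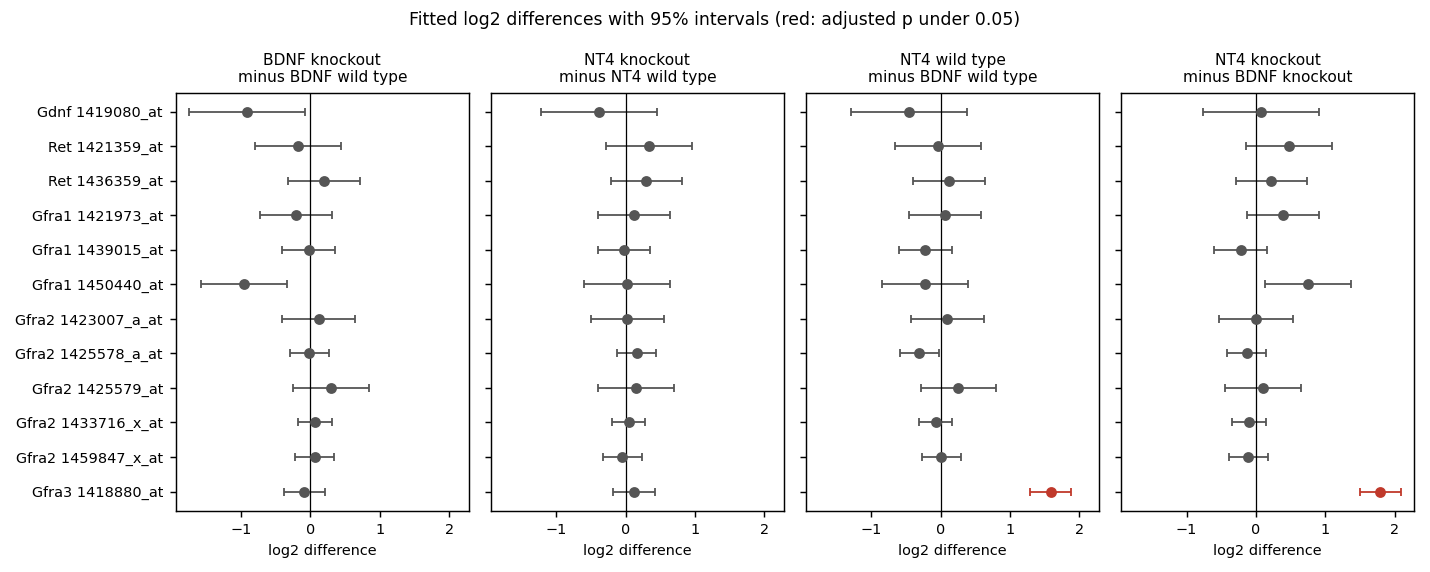
Log2 differences (x axis) of the 12 probe sets (y axis) in each knockout contrast and in each contrast between the lines, with points for limma's estimates, bars for 95% intervals and red for an adjusted p under 0.05. Gfra3 lies at 1.59 and 1.80 between the lines and is the only red point, and the intervals of Gdnf and of Gfra1 1450440_at in the BDNF knockout lie below 0 without passing the adjusted threshold.

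Between the wild types of the lines, 1 of the 12 probe sets was called and rose, where 13.9% of all probe sets were called in either direction and 6.48% rose. The arrays of 2 did not overlap, Gfra3 higher and Gfra1 1439015_at lower in the NT4 line, against 33.6% of all probe sets, 14.3% higher and 19.3% lower. Between the knockouts 1 of 12 was called and rose, against 15.6% of all probe sets in either direction and 8.31% that rose. The arrays of 1, Gfra3, did not overlap, against 31.1% of all and 16.3% higher. The median log2 difference of the 12 was -0.02 in wild types and 0.09 in knockouts, beside -0.04 and 0.04 over all probe sets.

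Lists of cell type markers were compared between the lines. The 7 measured geniculate visceral markers summed to 16334 to 18750 in NT4 knockouts and 16845 to 18466 in NT4 wild types. In the BDNF line they summed to 18510 to 20694 in knockouts and 18477 to 20318 in wild types. These sums overlapped between knockouts but not between wild types. The median log2 differences were -0.19 in wild types and -0.16 in knockouts. Tlx3 rose and Phox2a fell in both, beside calls for 13.6% and 15% of all genes. Summed intensities of 13 autonomic markers were 3918 to 4722 in NT4 knockouts and 5394 to 5666 in NT4 wild types, against 9069 to 11382 in BDNF knockouts and 8207 to 8830 in BDNF wild types. That sum is carried by the brightest of them, Slc6a2, the noradrenaline transporter, which averaged 911 in NT4 knockouts and 2172 in NT4 wild types, against 6389 in BDNF knockouts and 5837 in BDNF wild types. Slc6a2 also fell by 1.25 in NT4 knockouts against NT4 wild types (SE 0.11, limma adjusted p = 0.0113). Without it, the sums of the other 12 markers were 3054 to 3796 in NT4 knockouts and 3212 to 3475 in NT4 wild types, against 3139 to 4118 in BDNF knockouts and 2385 to 2859 in BDNF wild types. By count, 10 of the 13 markers were higher in NT4 than in BDNF wild types (median log2 difference 0.38) and 11 of 13 in NT4 than in BDNF knockouts (median 0.14). Of these 13 markers, Chat, Gata3 and Vip were dim. Between wild types 2 rose (Slc18a3 and Slc5a7) and 1 fell (Slc6a2) in the NT4 line, where 13.6% of all genes were called. Between knockouts 1 rose (Slc18a3) and 2 fell (Th and Slc6a2), where 15% of all genes were called.

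Summed intensities of the 7 measured somatic sensory markers were 7664 to 9931 in NT4 knockouts and 6819 to 7867 in NT4 wild types, against 7668 to 11543 in BDNF knockouts and 10177 to 11149 in BDNF wild types. Trpv1, a channel of pain-sensing neurons, was dim by its median over the arrays. It averaged 16.6 in NT4 knockouts and 17.2 in NT4 wild types, against 76.0 in BDNF knockouts and 17.6 in BDNF wild types. Its log2 difference in NT4 minus BDNF knockouts was -2.04 (SE 0.49, limma adjusted p = 0.0160). For the BDNF knockout it was 1.93 (SE 0.49, limma adjusted p = 0.423). The 8 measured glial markers summed to 17316 to 19054 in NT4 knockouts and 17718 to 18371 in NT4 wild types, against 17380 to 18732 in BDNF knockouts and 15969 to 18436 in BDNF wild types. The 10 markers of neurons in general summed to 89661 to 98746 in NT4 knockouts and 92909 to 101656 in NT4 wild types, against 96795 to 100051 in BDNF knockouts and 97132 to 105248 in BDNF wild types. The somatic sums were lower in the NT4 line between wild types and overlapped between knockouts, and the glial and general neuron sums overlapped in both. The brightest somatic marker, Pou4f1, averaged 1827 in NT4 knockouts and 1741 in NT4 wild types, against 3484 in BDNF knockouts and 4777 in BDNF wild types. Of the somatic markers, 2 fell between wild types (Pou4f1 and Runx3), where 13.6% of all genes were called. Between knockouts 3 fell (Pou4f1, Runx3 and Trpv1) and 1 rose (Avil), where 15% of all genes were called. Of the 8 glial markers, 1 rose between wild types (Foxd3) and none was called between knockouts, beside the same shares of all genes.

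Markers of surrounding tissue were also set beside the lines, where 13.6% of all genes were called between wild types and 15% between knockouts. Cartilage markers (8 measured) summed to 9371 to 12481 in NT4 wild types, against 13392 to 20176 in BDNF wild types, with a median log2 difference of -0.68 and a call for Snorc, which fell. Between knockouts the cartilage sums overlapped, at 11433 to 21264 in the NT4 line and 13497 to 29123 in the BDNF line. Of 5 inner ear markers measured, 3 of them dim, Otoa and Lmx1a fell between wild types (list median -0.95) and Lmx1a fell between knockouts (list median -0.19). All 7 endothelial markers had a negative difference between wild types (median -0.30) and 5 of 7 between knockouts (median -0.16), where Tek fell. Of 9 skeletal muscle markers, 8 had a positive difference between wild types (median 0.47) and 7 between knockouts (median 0.37), none of them past the threshold. Connective tissue markers had medians of -0.20 between wild types and 0.02 between knockouts, and red cell markers 0.01 and 0.09, with no calls in either list. Macrophage markers had medians of -0.07 and 0.26, also with no calls. The part of these cell types in the Gfra3 difference was not tested.

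The same lists were set beside the genotypes. Macrophage markers (8 measured) summed to 3326 to 4846 in NT4 knockouts, against 1609 to 2576 in NT4 wild types. Their median log2 difference was 0.85 and 4 of 8 had an unadjusted p under 0.05, where 5.62% of all probe sets did. In the BDNF line the macrophage markers summed to 2719 to 3783 in knockouts, against 2267 to 2416 in wild types. There the median was 0.21 and 1 of 8 had an unadjusted p under 0.05, where 6.72% of all probe sets did. No macrophage marker was called in either line. Cartilage markers were higher in 8 of 8 cases in NT4 knockouts (median 0.59, sums 11433 to 21264, against 9371 to 12481 in NT4 wild types), and connective tissue markers in 10 of 10 cases in each knockout (medians 0.30 for NT4 and 0.18 for BDNF), with no calls. Autonomic markers had a positive difference in 11 of 13 cases in BDNF knockouts, also with no calls. Of 7 somatic sensory markers, 2 were higher and 5 lower in BDNF knockouts (median -0.21), with no calls. At an unadjusted p under 0.05, 2 were higher and 3 lower, where 6.72% of all probe sets passed in either direction. In NT4 knockouts 5 were higher and 2 lower (median 0.06), none of them at such a p. The part of these cell types in the Gdnf, Ret and Gfra1 values of the knockouts was not tested.

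The other genes of the pathway were taken by their brightest probe set from lists of ligands and receptors, adaptors, induced genes and upstream transcription factors. With the loss of BDNF or NT4, 0 of the 48 measured genes were called, where 0.022% and 0.0055% of all genes were. Between the lines 8 of 48 were called in wild types and 8 in knockouts, against 13.6% and 15% of all genes.

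Among the remaining ligands and receptors of the family, 6 of 8 listed genes were measured. Pspn, the gene for persephin, rose in the NT4 line. It read 91.5, 120 and 137 in NT4 knockouts and 115, 110 and 127 in NT4 wild types, against 61.4, 51.7 and 49.9 in BDNF knockouts and 54.9, 67.1 and 53.2 in BDNF wild types, with no overlap between the lines. On the BDNF line 4 of its 6 arrays were under the limit for dim probe sets, and on the NT4 line none was, so the size of the difference rests on readings at the dim level. The fitted log2 difference was 1.02 in wild types (SE 0.16, limma adjusted p = 0.00154) and 1.08 in knockouts (SE 0.16, limma adjusted p = 0.000938). Artn, the gene for artemin and the ligand of the Gfra3 co-receptor, fell by 0.42 in NT4 wild types against BDNF wild types (SE 0.10, limma adjusted p = 0.0164) but was dim in these ganglia, at 45.1 to 50.8 in NT4 wild types, against 61.1 to 65.7 in BDNF wild types. Between knockouts Artn differed by -0.03, and its wild-type call was lost in 6 of 19 alternatives. Nrtn, the gene for neurturin, was dim and differed by -0.18 and 0.22, and Gfra4, the persephin co-receptor, by 0.03 and 0.20, all below the threshold.

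Among 20 measured adaptors and effectors at Ret, 3 fell and 0 rose between wild types, and 2 fell and 1 rose between knockouts. Sos1, a Ras exchange factor, was lower in the NT4 line by its brightest probe set, with -1.06 in wild types and -1.17 in knockouts (SE 0.10 in each). Of its other 4 probe sets, 2 had positive differences and 2 negative ones. In BDNF wild types the 2 negative ones averaged 2913 and 1294, and the 2 positive ones 212 and 59.9. Of the positive ones, 1421884_at, at 0.56 and 0.96, was called in knockouts in the opposite direction to the brightest, so the direction of Sos1 is uncertain. Cbl, a ubiquitin ligase that removes active receptors, fell by 0.76 in wild types and by 0.58 in knockouts (SE 0.13 in each), while its other probe sets were not called. Dok4, a docking protein, fell by 0.43 in wild types with a limma adjusted p of 0.0444, and Shc3, an adaptor of neurons, rose by 0.84 in knockouts with a limma adjusted p of 0.0473. Both lay close to the threshold, and each was lost in 15 of the 20 alternatives. Dok4 read 1356, 1422 and 1171 in BDNF knockouts, against 1890, 1935 and 1990 in BDNF wild types. Its log2 difference for the BDNF knockout was -0.56 (SE 0.13, unadjusted p = 0.00112 and adjusted p = 0.339 by limma), not past the threshold. Dok4 averaged 1413 in NT4 knockouts and 1441 in NT4 wild types, and differed by 0.10 in NT4 minus BDNF knockouts.

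Of 10 measured genes induced by Ret or other receptor tyrosine kinases, 1 fell between wild types, and 1 rose and 1 fell between knockouts. In the BDNF knockout 9 were lower and 1 higher, with a median log2 difference of -0.26 beside -0.02 over all genes. None was called, and 2 were lower at an unadjusted p under 0.05, where 4.25% of all probe sets were. In the NT4 knockout 5 were lower and 5 higher, with a median of 0.01 beside 0.03 over all genes. Wnt11, a secreted Wnt ligand that GDNF induces in the mouse ureteric bud, fell by 1.05 in wild types and by 0.94 in knockouts (SE 0.15 in each). Etv4, an ETS factor, read 519.2, 659.1 and 518.5 in NT4 knockouts and 672.2, 528.9 and 661.8 in NT4 wild types, against 63.2, 145.9 and 182.8 in BDNF knockouts and 692.0, 294.9 and 285.8 in BDNF wild types. The BDNF knockouts held the 3 lowest arrays. Its log2 difference was 2.24 in NT4 minus BDNF knockouts (SE 0.41, limma adjusted p = 0.00331) and 0.67 in NT4 minus BDNF wild types (limma adjusted p = 0.369), while the BDNF knockout itself gave -1.70 (limma adjusted p = 0.379). The other Etv4 probe set, 1443381_at, was dim and not called in any contrast. It gave 0.59 in NT4 minus BDNF knockouts and -0.03 for the BDNF knockout (SE 0.59 in each). Dusp6, a MAPK phosphatase, gave -0.40 for the BDNF knockout and -0.15 for the NT4 knockout, neither past the threshold. Myb, a transcription factor, gave -1.68 for the BDNF knockout and 1.95 for the NT4 knockout by 1421317_x_at, also not past it. In each contrast 1 array stood far above the rest of its group: BDNF wild-type replicate 2 read 1476, against 140 and 202 in the other replicates, and NT4 knockout replicate 1 read 1024, against 144 and 260. Another Myb probe set, 1450194_a_at, was called lower in NT4 than in BDNF wild types (-3.57, SE 0.88, limma adjusted p = 0.0204), where the same BDNF array read 1488, against 138 and 218, while 1421317_x_at was not called there (-1.99, limma adjusted p = 0.212).

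Of 12 measured transcription factors that lie upstream of Ret in peripheral neurons, 1 rose and 1 fell in both line contrasts. Tlx3, a homeobox factor of sensory neurons, read 308, 355 and 370 in NT4 knockouts and 322, 290 and 280 in NT4 wild types, against 50.8, 57.5 and 49.4 in BDNF knockouts and 69.8, 45.9 and 66.1 in BDNF wild types. Phox2a, a homeobox factor of visceral and autonomic neurons, read 397, 404 and 385 in NT4 knockouts and 469, 419 and 366 in NT4 wild types, against 1318, 1126 and 1244 in BDNF knockouts and 1281, 1237 and 1152 in BDNF wild types. The lines did not overlap in either gene, and they ran in opposite directions. For Tlx3 too, 4 of the 6 BDNF-line arrays were under the limit for dim probe sets, and none of the NT4 line, so the size of its difference rests on readings at the dim level. The fitted log2 differences of Tlx3 were 2.32 in wild types and 2.71 in knockouts (SE 0.16 in each), and those of Phox2a were -1.55 and -1.63 (SE 0.12 in each). Gata3 and Gata2, factors of sympathetic neurons among others, were not past the threshold.

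**Figure D3:**
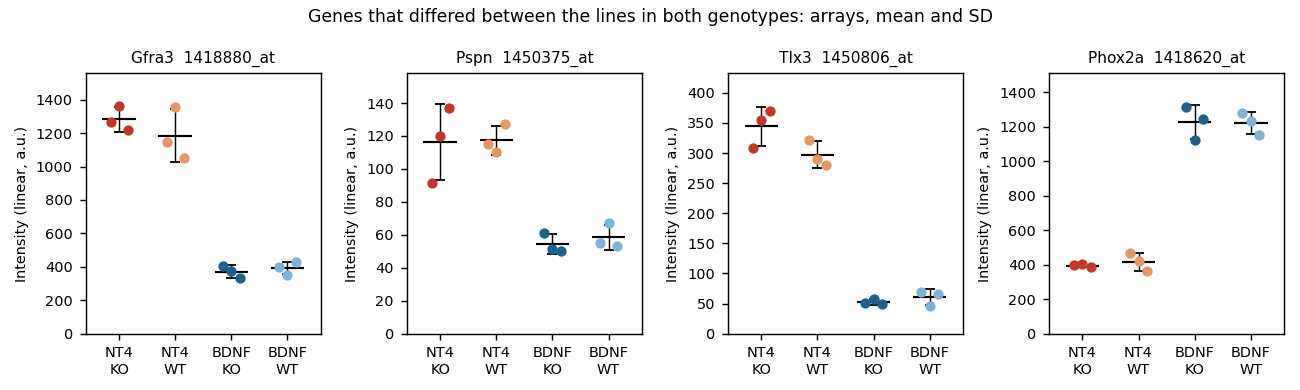
Linear intensity (arbitrary units, each axis from 0) of Gfra3, Pspn, Tlx3 and Phox2a on every array, with points for arrays, a line for the group mean and a bar for the SD of 3 arrays. Gfra3, Pspn and Tlx3 are higher on every NT4-line array than on any BDNF-line array, Phox2a is lower, and knockout and wild type of a line lie together.

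**Figure D4:**
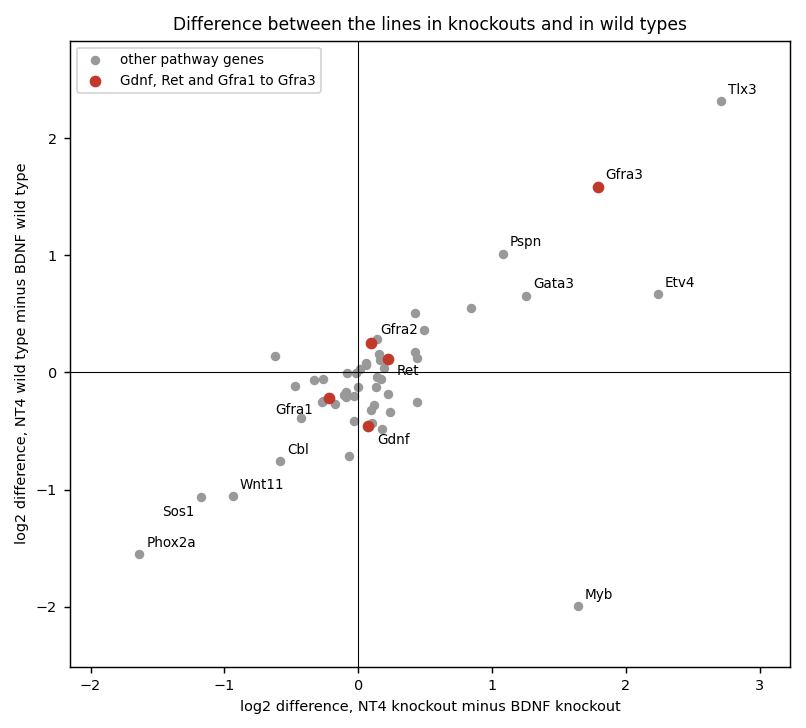
Log2 difference between the lines in knockouts (x axis) and in wild types (y axis) for the brightest probe set of the 5 genes (red) and of the other 48 pathway genes (grey), from contrasts that share no array. Gfra3 lies at 1.80 and 1.59, and Gdnf, Ret, Gfra1 and Gfra2 lie within 0.5 of 0 on both axes.

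The genes whose pattern was most like that of each member were taken by the lower of the 2 Pearson correlations within the lines, 6 arrays each, among 20243 probe sets above the median level. These values describe arrays that share their groups. For Gdnf they were Bcr at 0.906, Ap5z1 at 0.887 and Gphn at 0.868. For Ret read by 1436359_at they were Pik3ip1 at 0.922, Ppp6r2 at 0.912 and Plxna3 at 0.904, and for Gfra1 read by 1439015_at Hs6st1 at 0.967, Zdhhc9 at 0.929 and Ngrn at 0.923. Those of Gfra2 read by 1425579_at were Zc3h7b at 0.961, Smap1 at 0.926 and Hrk at 0.926. For Gfra3 they were Errfi1 at 0.898, Bcl2l1 at 0.877 and Maz at 0.817, and no candidate passed 0.9 in both lines. Among the members themselves, the 10 pairs of a Ret and a Gfra2 probe set correlated at -0.62 to 0.92 in the NT4 line and at -0.73 to 0.81 in the BDNF line, with no common sign.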

How the data were processed

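Expression was measured on 12 arrays, 3 in each of 4 groups taken from the labels. The authors deposited 1 linear intensity per probe set and array; how background was subtracted and arrays were scaled is not given there. The authors also deposited 2 lists with linear mean intensities, a signed fold score and an unadjusted p-value, per the file headers. Log2 values were planned for, so log2 of each intensity was taken with no offset. After 64 array controls were left out, 45037 probe sets entered a fit of 4 group means by lmFit and eBayes of limma 3.58.1 (R 4.3.3, 8 residual and 2.27 prior degrees of freedom), with 5 two-sided contrasts and Benjamini-Hochberg adjustment. The median standard error of a log2 difference was 0.20; the number of arrays limits the precision. Single symbols were given for 34945 probe sets, several for 932 and none for 9160, and names come from that table. The fit was tested on simulated data.

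The members, gene lists, motifs and naming rule were chosen with earlier results of these data known. Every member is described; from each pathway list the up to 4 genes of lowest p in any contrast by the brightest probe set are named. Replicate numbers were compared as possible pairs: deviations of same-numbered arrays correlated at -0.16 to 0.10, so they were not treated as pairs. Alternatives were other scalings, an offset, a filter, other variance settings, the authors' criteria and left-out arrays.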

Additional observations from a re-analysis of the deposited data

How the results depend on the processing

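Of 1188 member values recomputed under alternatives, 1181 kept their direction and their side of the threshold or were smaller than their standard error, 2 passed the threshold, 5 reversed and 0 lost a call. Among the 1181, 70 changed sign, all with a reported value below 1 standard error. Gfra3 stayed past the threshold in both contrasts between the lines under every alternative run, with log2 differences of 1.41 to 1.67 in wild types and 1.65 to 1.87 in knockouts. By the authors' criteria on linear values (fold at least 1.2, difference at least 50, unadjusted p under 0.05), 1 member was listed for the BDNF knockout in place of 0, which is Gfra1 1450440_at; its adjusted p by limma ran from 0.357 to 0.809 over the alternatives. In NT4 knockout minus BDNF knockout, 1 to 3 members were called when single arrays were left out, the 3 without NT4 knockout replicate 1. In NT4 minus BDNF wild types Gdnf turned to 0.057 without BDNF wild-type replicate 1, within -0.77 to 0.057 when single arrays were left out. Gfra2 1425579_at turned to -0.035 for the BDNF knockout without BDNF wild-type replicate 2 and to -0.035 without both arrays of high Xist, within -0.035 to 0.54 for single arrays; in NT4 minus BDNF wild types it turned to -0.080 and -0.11, within -0.080 to 0.50. All 5 reversed values were not past the threshold, and each rests on the array named. With the replicate number as a block, 0, 0 and 0 members were called for the BDNF knockout, the NT4 knockout and their difference, and 1 and 1 between the lines in wild types and in knockouts, as without it. Of 379 called values of pathway genes, 339 stayed past the threshold and 40 did not, in Artn, Dok4, Shc3 and Bdnf 1422169_a_at. Over all probe sets the number called ran from 0 to 12 for the BDNF knockout (8 as reported), 0 to 5 for the NT4 knockout (2 as reported) and 1 to 5 for their difference (5 as reported); fits on only the arrays compared gave the counts of 0 for the BDNF knockout. Centring arrays on their median moved the median difference between knockouts of the lines to -0.10, against 0.04 as reported.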
